A study of Mus musculus with 24 samples.

Results

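Excision repair of cisplatin adducts was described for 9 mouse genes that carry platinum drugs into or out of cells, in kidney and liver over the day. The genes were taken by symbol, and all 9 were found, each in 1 of the 25239 gene entries of the deposited tables. The assay was XR-seq, which captures and sequences the short adduct-bearing oligomers released by nucleotide excision repair. A read on the transcribed strand (TS), the template of RNA polymerase, marks repair of that strand. A read on the opposite, non-transcribed strand (NTS) marks repair that stalled polymerases transcribing the gene do not set off. All mice were wild-type C57BL/6J females (strain C57BL/6 in the sample labels), 6 months of age, housed under a cycle of 12 h light and 12 h dark, and all received cisplatin at 10 mg/kg by intraperitoneal injection, with no untreated group among the samples. Kidney and liver were taken 2 h after injection at zeitgeber time (ZT, which counts hours from lights on) 0, 4, 8, 12, 16 and 20, with 2 libraries for each tissue and time, or 12 per tissue. Whether both libraries of a time stem from different animals is not stated in the labels, so every p-value measures only how far these libraries lie apart, which may be technical spread.

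Cisplatin enters cells partly through the organic cation transporter OCT2 (Slc22a2) of the kidney tubule and through the copper importer CTR1 (Slc31a1), whose relative CTR2 (Slc31a2) lies on internal membranes. MATE1 (Slc47a1) passes organic cations out of the tubule cell into urine and out of the hepatocyte into bile. The copper pumps ATP7A and ATP7B (Atp7a, Atp7b) and the ABC transporters MRP2, MRP3 and MRP4 (Abcc2, Abcc3, Abcc4) move copper, platinum, drug conjugates or bile acid conjugates out of the cytosol. Cisplatin damages the kidney more than the liver, and these transporters are a standing subject of work on that difference. Because repair of the transcribed strand follows RNA polymerase, TS reads depend on transcription of the gene as well as on its adducts, and adduct formation itself was not analysed here.

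Depth in genes lay between 6334958 and 24236776 TS reads in kidney and between 9538537 and 21050661 in liver, and the NTS had from 975978 to 3948748 reads in kidney libraries and 1333813 to 2940892 in those of liver. Kidney tubule markers had more TS reads in kidney for 8 of 8 genes and hepatocyte markers more in liver for 8 of 8, and 7 of 7 clock genes were rhythmic in each tissue. The liver library of ZT0 replicate 1 stood apart from the rest. Its median correlation with the other liver libraries was 0.979, against 0.989 or more for each of the other 11. The summed TS level of 7 endothelial markers was 6.95 in that library and 2.46 to 3.65 in the others, and that of 8 hepatocyte markers was 19.1 against 25.1 to 28.7. The sums of 4 podocyte markers (1.76) and 5 mesenchymal markers (1.77) were also highest there, against at most 0.907 and 1.60 in the others. Those of immune (7.67) and cholangiocyte (4.02) markers lay within the range of the others. Most of each of these sums came from a single gene, Cd68 (mean liver level 6.26) and Sox9 (3.52). Of the 9 transporter genes, 4 had their lowest liver level in the ZT0 replicate 1 library (Slc31a1, Slc47a1, Atp7b and Abcc2) and Abcc4 had its highest. The part of cell make-up in these levels was not tested, and liver rhythms whose call changes, or whose amplitude moves by over 1.5 times, without the library are given both ways.

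The transporter genes differed widely between the tissues. Levels are TS reads per kilobase of gene, scaled to the TS reads of the library as in RPKM after TMM over the 24 libraries. This puts genes of different length on a common scale. Whether adducts or repair per kilobase differ with length or sequence was not tested. Counts were compared with edgeR's quasi-likelihood test, with p-values adjusted by the Benjamini-Hochberg method over all genes tested. Of the 9 genes 7 differed between kidney and liver at an adjusted p below 0.05, 3 higher in kidney (Slc22a2, Atp7a and Abcc4) and 4 lower (Slc47a1, Atp7b, Abcc2 and Abcc3), where 73.9% of all 19702 genes tested were called, 42.2% higher and 31.7% lower. The share of called transporters was thus near that of all genes, and their median difference was 0.01 on the log2 scale against 0.07 for all genes. In bulk tissue, fewer cells of a type and less repair per cell cannot be told apart.

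**Figure D1:**
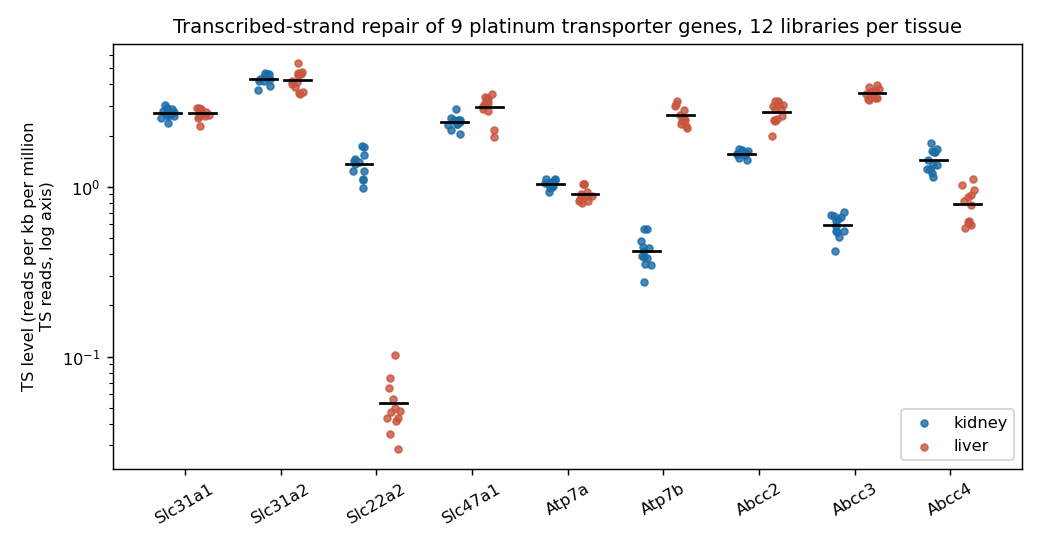
TS level of each gene in each library (points; kidney blue, liver red) with the mean of 12 libraries as a black bar, on a log axis. Slc22a2 lies near 1.36 in kidney and 0.053 in liver, while the copper importers Slc31a1 and Slc31a2 overlap between the tissues.

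Slc22a2, the organic cation transporter that takes cisplatin into proximal tubule cells, showed the widest tissue difference of the 9. Its entry spans chr17:12584189-12628488 on the + strand (mm10). Its TS level in the 12 kidney libraries had a lowest value of 0.977, a median of 1.38 and a highest value of 1.74, from 484 to 1560 reads per library. In liver the corresponding values were 0.0285, 0.0477 and 0.102, from 13 to 71 reads. The lowest kidney library lay above the highest liver library, and the kidney mean was higher at 6 of 6 times. TS reads were 26.0-fold higher in kidney (log2 4.70 ± 0.14 SE, adjusted p = 5.10e-16). Among the 19702 genes tested between the tissues, the kidney level lay at the 50.6th percentile of kidney levels and the liver level at the 14.5th of liver levels. Within kidney, replicate 1 was above replicate 2 at 6 of 6 times, as it also was for Atp7b and Abcc2, and at 5 of 6 for Slc31a1.

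The copper importer gene Slc31a1 had nearly the same TS level in both tissues. It lies at chr4:62360701-62391769 on the + strand. Its level ran from 2.37 through a median of 2.71 to 3.03 in kidney and from 2.29 through 2.71 to 2.91 in liver, and the ranges overlapped almost fully. The difference of kidney minus liver was 0.01 on the log2 scale with an interval of 2 SE from -0.06 to 0.08 (adjusted p = 0.876), and -0.04 without the liver ZT0 library that stood apart. Slc31a2, encoded by the neighbouring entry at chr4:62286429-62298412 on the + strand, had the highest level of the 9 genes in both tissues. Its lowest, median and highest values were 3.71, 4.37 and 4.68 in kidney and 3.54, 4.18 and 5.33 in liver. Here too the tissues overlapped, with a difference of 0.03 (interval of 2 SE from -0.04 to 0.11, adjusted p = 0.410), and with the reads of both strands as library size in place of TMM it was 0.10 (adjusted p = 0.0178); without that liver library it was -0.01. Fkbp15 lies on the opposite strand between the 2 genes, 152 bases from the start of Slc31a1 and 1929 bases beyond the end of Slc31a2, with a TS level of 2.38 in kidney and 2.78 in liver. None of the 9 entries shares bases with an entry on the opposite strand.

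Slc47a1 encodes MATE1, the exporter that works in series with OCT2 in the tubule, and lies at chr11:61343400-61378075 on the - strand. Unlike Slc22a2 it had a high TS level in liver as well. Its lowest, median and highest levels were 2.05, 2.42 and 2.87 in kidney and 1.96, 3.09 and 3.50 in liver. The tissues overlapped because 3 liver libraries, replicate 1 of ZT0 (1.96), of ZT4 (2.17) and of ZT8 (2.795), lay within or below the kidney range, while the kidney mean was higher than that of liver at 0 of 6 times. TS reads were 1.23-fold lower in kidney (log2 -0.30 ± 0.07, adjusted p = 0.000804), and without the liver ZT0 library that stood apart the difference was -0.37 ± 0.06.

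The copper pumps behaved differently from each other. Atp7a, the copper exporter of most tissues outside the liver, lies at chrX:106027224-106128160 on the + strand. Its levels were 0.930 to 1.12 in kidney (median 1.05) and 0.802 to 1.04 in liver (median 0.885). The ranges overlapped, the kidney mean was higher at 6 of 6 times, and TS reads were 1.15-fold higher in kidney (log2 0.20 ± 0.03, adjusted p = 2.35e-05). Atp7b, the copper pump of the hepatocyte that loads ceruloplasmin and sends copper into bile, lies at chr8:21994348-22060074 on the - strand. Its levels were 0.273 to 0.566 in kidney (median 0.405) and 2.22 to 3.19 in liver (median 2.53), and the ranges did not overlap. TS reads of Atp7b were 6.35-fold lower in kidney (log2 -2.67 ± 0.08, adjusted p = 1.04e-15). In each of the 12 kidney libraries the level of Atp7a was above that of Atp7b, and in each of the 12 liver libraries the reverse held.

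The 3 MRP pumps fell into different patterns. Abcc2 encodes MRP2, which exports conjugates across the apical membrane into bile and urine, and lies at chr19:43782308-43838218 on the + strand. Its levels were 1.44 to 1.67 in kidney (median 1.57) and 1.99 to 3.22 in liver (median 2.87), with no overlap, and TS reads were 1.76-fold lower in kidney (log2 -0.81 ± 0.05, adjusted p = 9.70e-12). Abcc3 encodes MRP3, which exports conjugates across the basolateral membrane towards blood, and lies at chr11:94343295-94392976 on the - strand. Its levels were 0.417 to 0.713 in kidney (median 0.604) and 3.25 to 3.99 in liver (median 3.57), and TS reads were 6.04-fold lower in kidney (log2 -2.59 ± 0.07, adjusted p = 1.48e-16). Abcc4 encodes MRP4, an exporter of organic anions and cyclic nucleotides that is apical in tubule cells and basolateral in hepatocytes. It is the longest of the 9 entries, 223.5 kb at chr14:118482692-118706219 on the - strand, and the microRNA gene Mir6391 lies inside it on the same strand. Its levels were 1.14 to 1.81 in kidney (median 1.39) and 0.570 to 1.103 in liver (median 0.802). The lowest kidney library was just above the highest liver library, and TS reads were 1.84-fold higher in kidney (log2 0.88 ± 0.07, adjusted p = 4.09e-09).

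Within kidney the mean levels fell in the order Slc31a2 (4.32), Slc31a1 (2.72), Slc47a1 (2.41), Abcc2 (1.57), Abcc4 (1.44), Slc22a2 (1.36), Atp7a (1.04), Abcc3 (0.595) and Atp7b (0.419). Neighbours whose library ranges did not overlap were Slc31a2 and Slc31a1, Slc47a1 and Abcc2, and Atp7a and Abcc3. Abcc2 exceeded Abcc4 in 7 of 12 libraries and Abcc4 exceeded Slc22a2 in 8 of 12. In liver the order was Slc31a2 (4.24), Abcc3 (3.56), Slc47a1 (2.96), Abcc2 (2.77), Slc31a1 (2.70), Atp7b (2.63), Atp7a (0.908), Abcc4 (0.789) and Slc22a2 (0.0530). There the ranges of neighbours overlapped except between Atp7b and Atp7a and between Abcc4 and Slc22a2, and Abcc2 exceeded Slc31a1 in 7 of 12 libraries, as Slc31a1 did Atp7b. The median of the 19702 genes tested between the tissues had a TS level of 1.32 in kidney and 1.33 in liver. The shortest entries, Slc31a2 (11.98 kb), Slc31a1 (31.07 kb) and Slc47a1 (34.68 kb), came first in kidney, while in liver Abcc3 (49.68 kb) came second. The part of gene length in these orders was not tested.

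Reads on the non-transcribed strand were sparser and differed less between the tissues for the genes with wide TS differences. They are read as repair that does not depend on transcription of the gene itself. Whether transcription along the opposite strand adds to them was not tested. Slc31a2 had a mean NTS level of 1.75 in kidney and 2.27 in liver, against 0.17 and 0.13 for the median gene. All 9 genes differed on this strand (66.1% of 19124 genes were called), 4 higher in kidney (33.9% of genes) and 5 lower (32.2%). NTS levels are scaled to the TS reads as TS levels are, while edgeR's test used TMM over the NTS columns, so the 2 scales differ. Slc22a2 had an NTS level of 0.107 to 0.183 in kidney and 0.0309 to 0.0528 in liver. In the test the difference was 2.94-fold (log2 1.55 ± 0.10, adjusted p = 7.92e-15), beside 26.0-fold on the TS. NTS reads of Atp7b were 2.19-fold lower in kidney (log2 -1.13 ± 0.07, adjusted p = 1.94e-15) and those of Abcc3 2.27-fold lower (log2 -1.18 ± 0.07, adjusted p = 1.06e-16), both less than on the TS. Abcc2 differed about as much on the NTS (log2 -1.06 ± 0.08) as on the TS. Slc31a1 and Slc31a2, level on the TS, had fewer NTS reads in kidney, by log2 -0.55 ± 0.07 and -0.63 ± 0.09. Slc47a1 had fewer TS reads in kidney and more NTS reads (log2 0.48 ± 0.08, adjusted p = 5.04e-06). Atp7a (log2 0.43 ± 0.08) and Abcc4 (log2 0.58 ± 0.06) were higher in kidney on the NTS as well. With the reads of both strands as library size the median NTS difference of all genes moved from 0.02 to 0.34 and the split of all calls from 6485 higher and 6159 lower to 10475 and 3199, with the same direction for each of the 9 genes. On that scale the NTS differences of Slc31a1 and Slc31a2 were -0.24 ± 0.07 and -0.32 ± 0.07, those of Slc47a1, Atp7a and Abcc4 were 0.80 ± 0.10, 0.74 ± 0.10 and 0.89 ± 0.08, and that of Slc22a2 was 1.87 ± 0.11.

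**Figure D2:**
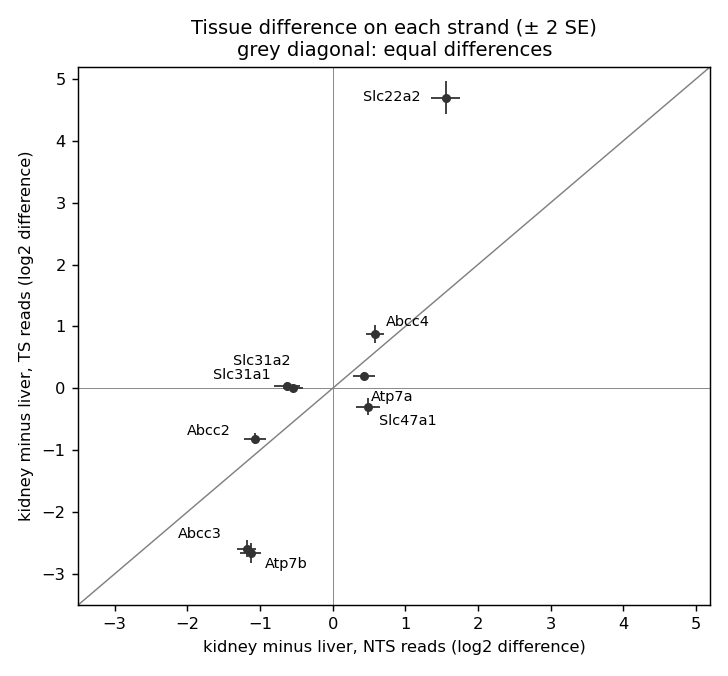
Kidney minus liver on the log2 scale for NTS reads (horizontal) and TS reads (vertical) of the 9 genes, with bars of 2 SE and a grey diagonal where both differences are equal. Slc22a2 lies far above the diagonal, Atp7b and Abcc3 far below it, and Slc47a1 is the gene with opposite directions that were both called.

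The ratio of TS to NTS reads sets both strands of a gene against each other within a library and so does not depend on gene length. TS reads outnumbered NTS reads for all 9 genes in kidney and in liver, as 81.4% of 18414 genes did in kidney and 80.9% of 17821 in liver (92.0% and 91.7% were called in either direction), but when the strands were scaled to each other by TMM, which took the median gene of kidney from log2 2.49 to 0.03 and that of liver from 2.70 to 0.17, Slc31a1, Slc31a2 and Abcc3 were lower on the TS in kidney (-0.52, -1.15 and -0.95) and Slc22a2, Slc31a1 and Slc31a2 in liver (-2.17, -0.89 and -1.64). On that scale 8698 genes were higher and 8524 lower in kidney, against 14996 and 1937 with 1 size for both strands, and 8813 and 7902 in liver, against 14410 and 1929. The log2 ratio in kidney was 3.20 ± 0.09 for Slc22a2, 1.95 ± 0.07 for Slc31a1 and 1.32 ± 0.06 for Slc31a2. It was 3.10 ± 0.07 for Slc47a1, 3.75 ± 0.08 for Atp7a and 2.66 ± 0.11 for Atp7b. The MRP genes had 3.08 ± 0.07 (Abcc2), 1.51 ± 0.08 (Abcc3) and 3.65 ± 0.10 (Abcc4). Slc31a2 and Abcc3 had the least TS-biased repair of the 9 in kidney, well below the median gene.

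In liver Slc22a2 had almost no strand bias. Its TS reads exceeded its NTS reads in 7 of 12 libraries, with ratios from 0.619 to 2.45, and the log2 ratio of 0.35 ± 0.15 (adjusted p = 0.0258) lost its call under DESeq2 (adjusted p = 0.0862) and without ZT4 replicate 1 (0.109), ZT12 replicate 1 (0.0637) or ZT20 replicate 2 (0.0635). For the other 8 genes TS reads were the more numerous in 12 of 12 liver libraries. The log2 ratio was 4.13 ± 0.08 for Slc47a1, 4.23 ± 0.08 for Atp7a, 4.48 ± 0.08 for Atp7b, 3.09 ± 0.07 for Abcc2, 3.18 ± 0.06 for Abcc3 and 3.58 ± 0.08 for Abcc4. The copper importers had 1.64 ± 0.05 (Slc31a1) and 0.90 ± 0.07 (Slc31a2).

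The ratio itself differed between the tissues for 7 of the 9 genes, where 60.7% of 19114 genes were called, 23.1% higher in kidney and 37.6% lower. It was higher in kidney for Slc22a2 by log2 2.84 ± 0.18 (adjusted p = 1.87e-16), for Slc31a2 by 0.42 ± 0.10 (adjusted p = 0.000232) and for Slc31a1 by 0.30 ± 0.09 (adjusted p = 0.00234). It was lower in kidney for Atp7b (-1.82 ± 0.14, adjusted p = 1.64e-14), Abcc3 (-1.67 ± 0.10, adjusted p = 2.89e-17), Slc47a1 (-1.03 ± 0.10, adjusted p = 5.31e-11) and Atp7a (-0.49 ± 0.11, adjusted p = 0.000158). Abcc2 and Abcc4 did not pass the test, with differences of -0.01 (interval of 2 SE from -0.22 to 0.21) and 0.07 (from -0.18 to 0.32), the latter under a TS difference of 1.84-fold. The median over all genes was -0.14. With the strands scaled to each other by TMM the median was 0.03 and 5993 genes were higher and 5506 lower, against 4423 and 7185, with the same 7 transporter genes called in the same directions.

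**Figure D3:**
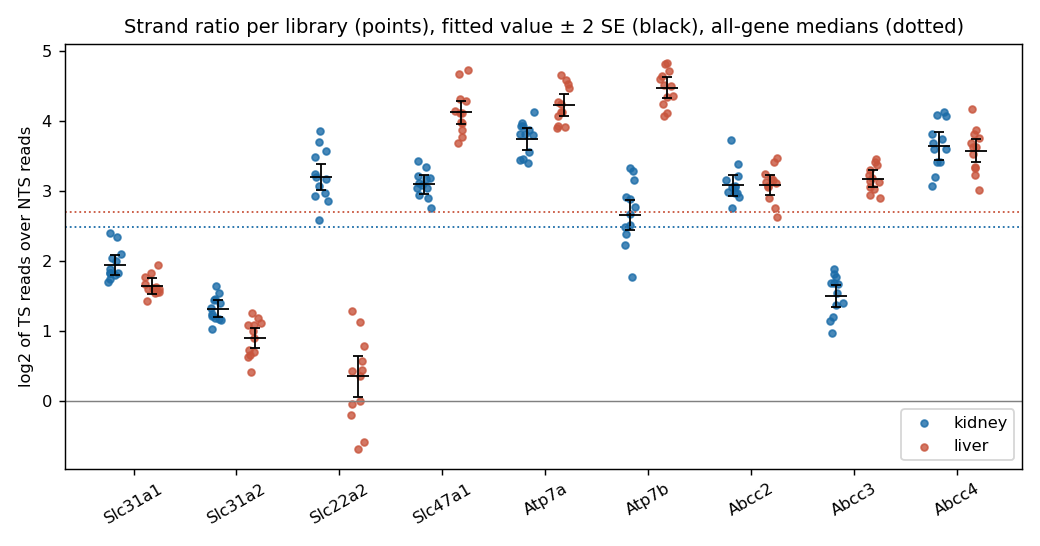
Log2 ratio of TS to NTS reads in each library (points; kidney blue, liver red) with the fitted value and 2 SE in black and the median of all genes as dotted lines, blue at 2.49 for kidney and red at 2.70 for liver. Slc22a2 lies near 0 in liver, and Slc31a1 and Slc31a2 lie below the medians in both tissues.

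Daily rhythm was tested on TS reads as a cosine of 24 h, whose amplitude is the log2 distance from the daily mean to the peak and whose peak is given in hours of ZT. In kidney 1 of the 9 genes, Abcc4, was called rhythmic, where 15.0% of 19277 genes were. The 2 libraries gave Abcc4 levels of 1.81 and 1.33 at ZT0, 1.27 and 1.34 at ZT4, 1.199 and 1.14 at ZT8, 1.43 and 1.27 at ZT12, 1.61 and 1.63 at ZT16, and 1.67 and 1.60 at ZT20. Both libraries of ZT8 were the lowest of the 12, and those of ZT16 and ZT20 all exceeded both of ZT4, ZT8 and ZT12. The amplitude was 0.25 ± 0.04 with a peak at 19.7 h, a 1.41-fold range (adjusted p = 0.00469). With the trend of counts over gene length taken out of each library it was 0.15 ± 0.03 (adjusted p = 0.0101). The replicate numbers pair the kidney libraries, and with the replicate number as a block Abcc4 was called with an adjusted p of 0.000317, where 25.4% of genes were called. The call held without each of the 12 libraries in turn, whereas with a free mean for each of the 6 times in place of the cosine the adjusted p was 0.118. NTS reads of Abcc4 had an amplitude of 0.04 ± 0.05 in kidney and were not called (adjusted p = 0.942). The summed level of 7 endothelial markers, of which 4 were rhythmic in kidney, was highest at 3.95 in a ZT8 library. It was lowest at 2.50 in replicate 1 of ZT20, as were the podocyte (0.974), mesenchymal (1.04) and kidney tubule (9.84) sums. The hepatocyte, cholangiocyte, immune and pancreatic acinar sums were not lowest there. Rhythmic in kidney were 1 of 4 podocyte, 2 of 5 mesenchymal and 1 of 8 tubule markers. The part of cell make-up in the Abcc4 rhythm was not tested. The other 8 genes had kidney amplitudes of 0.01 to 0.21 with adjusted p from 0.0941 (Slc31a1) to 0.993 (Abcc3). The replicate block called none of them. Under it the adjusted p was 0.0619 for Slc31a1, 0.0639 for Atp7b (0.270 without the block), 0.0759 for Slc31a2 and 0.136 for Slc22a2. For the rest it was 0.341 (Abcc2) or more.

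In liver 4 of the 9 genes were called rhythmic, Slc31a2, Atp7a, Atp7b and Abcc2, where 16.6% of 18655 genes were. The median amplitude of the 9 was 0.17, against 0.14 for all genes. With a free mean for each time in place of the cosine, none of the 4 was called (adjusted p from 0.101 to 0.244). Slc31a2, the internal-membrane relative of CTR1, had levels of 4.00 and 4.56 at ZT0, 4.16 and 4.21 at ZT4, 3.54 and 3.60 at ZT8, 3.56 and 3.87 at ZT12, 4.74 and 4.68 at ZT16, and 5.33 and 4.60 at ZT20. The 4 libraries of ZT8 and ZT12 were the lowest and the 4 of ZT16 and ZT20 the highest. Its amplitude was 0.21 ± 0.04 with a peak at 20.2 h (1.34-fold, adjusted p = 0.0116), which lost its call without ZT20 replicate 1 (adjusted p = 0.0644).

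Both copper pumps had their peak in the dark phase in liver. Atp7a had levels of 0.888 and 0.910 at ZT0, 0.876 and 0.823 at ZT4, 0.802 and 0.883 at ZT8, 0.826 and 0.843 at ZT12, 1.04 and 1.04 at ZT16, and 0.936 and 1.04 at ZT20. The 4 libraries of ZT16 and ZT20 exceeded the other 8. Its amplitude was 0.14 ± 0.03 with a peak at 18.5 h (1.22-fold, adjusted p = 0.0221). Atp7b had levels of 2.22 and 2.85 at ZT0, 2.48 and 2.53 at ZT4, 2.42 and 2.27 at ZT8, 2.53 and 2.35 at ZT12, 2.99 and 2.64 at ZT16, and 3.19 and 3.06 at ZT20. Here the 2 libraries of ZT0 lay far apart, the lowest and the fourth highest of the 12. The amplitude was 0.17 ± 0.04 with a peak at 19.3 h (1.26-fold, adjusted p = 0.0449), and without the ZT0 library that stood apart it was 0.20 ± 0.03 at 20.4 h (adjusted p = 0.000965). Both pumps lost their calls once the trend of counts over gene length had been taken out of each library (amplitude 0.09 ± 0.03, adjusted p = 0.221 for Atp7a and 0.13 ± 0.05, adjusted p = 0.205 for Atp7b), and Atp7b also with no filter on low counts (0.18 ± 0.05, adjusted p = 0.0567). Atp7a also lost its call without ZT4 replicate 2 (adjusted p = 0.0555), ZT8 replicate 1 (0.0646), ZT16 replicate 1 (0.065) or 2 (0.0518), or ZT20 replicate 2 (0.0875). Atp7b lost its call without any 1 of 10 libraries (adjusted p from 0.0536 to 0.187) and kept it only without ZT0 replicate 1 or ZT16 replicate 2.

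Abcc2 ran in the other phase in liver and was the 1 gene of the 9 that edgeR called on both strands in a tissue. DESeq2 also called Slc31a1 in kidney on both, with a peak at 8.6 h on the TS (adjusted p = 0.0435) and at 18.2 h on the NTS (adjusted p = 0.0372). The TS levels of Abcc2 in liver were 1.99 and 2.88 at ZT0, 3.001 and 2.87 at ZT4, 3.22 and 3.02 at ZT8, 3.18 and 3.08 at ZT12, 2.49 and 2.48 at ZT16, and 2.43 and 2.60 at ZT20. The 4 libraries of ZT16 and ZT20 and replicate 1 of ZT0 were the 5 lowest. The amplitude was 0.21 ± 0.05 with a peak at 8.6 h (1.35-fold, adjusted p = 0.0284), and without the ZT0 library that stood apart it was 0.18 ± 0.03 (adjusted p = 0.00467). The call was lost without ZT8 replicate 1 (adjusted p = 0.0984), ZT12 replicate 1 (0.067) or 2 (0.0669), ZT16 replicate 1 (0.0722) or 2 (0.0535), or ZT20 replicate 1 (0.086) or 2 (0.0531). NTS reads of Abcc2 in liver had an amplitude of 0.36 ± 0.07 with a peak at 8.8 h (1.65-fold, adjusted p = 0.00623), lost without ZT8 replicate 2 (adjusted p = 0.0518). Abcc2 was the 1 gene of the 9 called on this strand in liver, where 3.76% of 18061 genes were called. Its NTS levels were highest in replicate 2 of ZT8 (0.486) and replicate 2 of ZT12 (0.455) and lowest in replicate 1 of ZT0 (0.227) and of ZT20 (0.228).

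**Figure D4:**
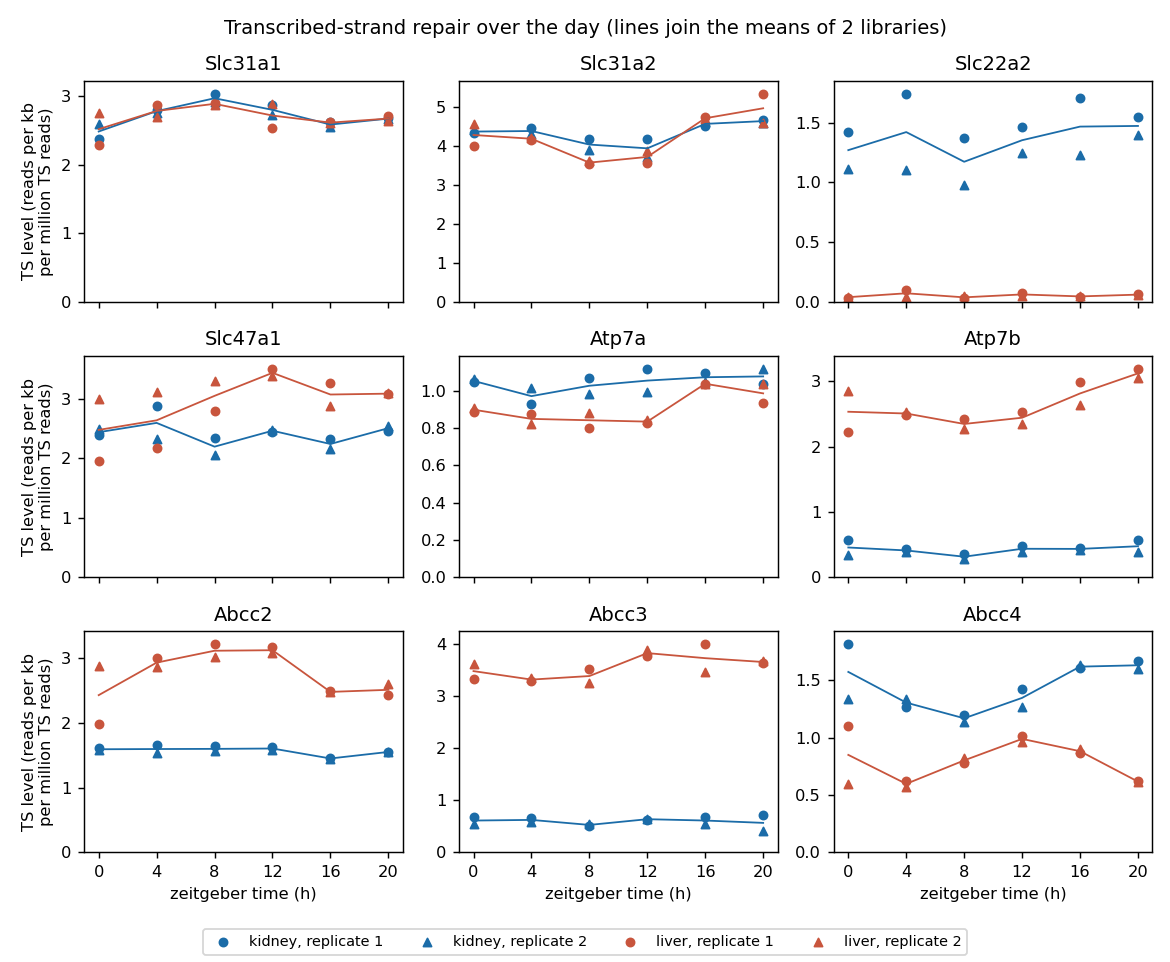
TS level of each gene by zeitgeber time in kidney (blue) and liver (red), with replicate 1 as circles, replicate 2 as triangles and lines through the means of 2 libraries; each axis starts at 0. Liver Abcc2 is low at ZT16 and ZT20, where Slc31a2, Atp7a and Atp7b are high, and the 2 liver libraries of Abcc4 at ZT0 lie at 1.103 and 0.597.

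Of the 5 liver genes not called, Slc22a2, Slc31a1, Slc47a1 and Abcc3 had amplitudes of 0.07, 0.08, 0.20 and 0.09 (adjusted p from 0.113 to 0.970). Without the ZT0 library that stood apart those of Slc22a2 and Slc47a1 were 0.14 and 0.13 (adjusted p = 0.846 and 0.274), and over the 12 libraries left out in turn that of Slc22a2, the gene with the fewest reads, ran from 0.02 to 0.25. Abcc3 was called without ZT16 replicate 2 (0.12 ± 0.03, adjusted p = 0.0347). Abcc4 in liver turned on the ZT0 library that stood apart. The 2 libraries gave 1.103 and 0.597 at ZT0, 0.624 and 0.570 at ZT4, 0.777 and 0.826 at ZT8, 1.02 and 0.960 at ZT12, 0.865 and 0.898 at ZT16, and 0.623 and 0.611 at ZT20. Apart from replicate 1 of ZT0, which was the highest of the 12, the libraries of ZT12 were the highest and those of ZT0, ZT4 and ZT20 the lowest, with the replicates of each other time close together. With all 12 libraries the amplitude was 0.23 ± 0.11 with a peak at 12.8 h (adjusted p = 0.324). Without that library it was 0.43 ± 0.03 with a peak at 12.4 h, a 1.81-fold range (adjusted p = 1.97e-05), where 23.8% of genes were called. With all libraries and the length trend taken out it was 0.30 ± 0.08 (adjusted p = 0.0489). The endothelial marker sum was 6.95 in the library left out and 2.46 in the other library of ZT0. The podocyte (1.76 against 0.668) and mesenchymal (1.77 against 1.06) sums were higher in it too, and the part of cell make-up was not tested.

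**Figure D5:**
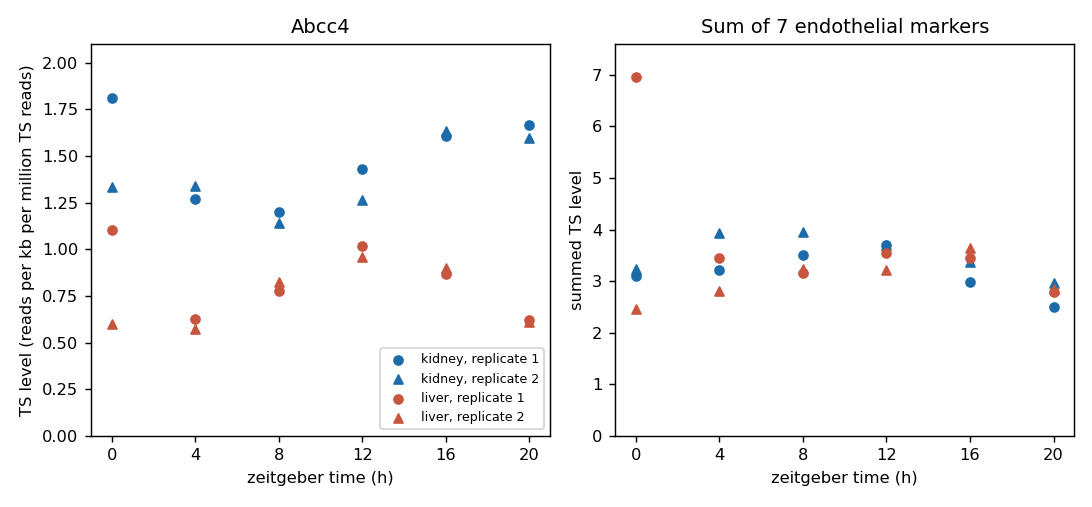
TS level of Abcc4 (left) and the summed TS level of 7 endothelial markers (right) by zeitgeber time in each kidney (blue) and liver (red) library. Replicate 1 of liver ZT0 has the highest liver value in both panels, 1.103 for Abcc4 and 6.95 for the marker sum. The podocyte and mesenchymal marker sums, not drawn, were also highest in that liver library.

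None of the 9 genes passed edgeR's test for a rhythm that differs between kidney and liver, where 0.939% of 19702 genes did. At an unadjusted p below 0.05 there were 3 (Slc47a1, Abcc2 and Abcc4), and DESeq2 called 0. The difference for Abcc4 had an amplitude of 0.36 ± 0.12 (adjusted p = 0.310) with all libraries and of 0.56 ± 0.06 (adjusted p = 2.46e-05) without replicate 1 of liver ZT0, where 1.99% of genes were called. The liver rhythms of Slc31a2, Atp7a, Atp7b and Abcc2 are therefore not shown to be absent in kidney. Kidney amplitudes were 0.11 ± 0.04 at 21.0 h for Slc31a2 and 0.21 ± 0.09 at 19.7 h for Atp7b. Those of Atp7a and Abcc2 were 0.06 ± 0.03 at 17.4 h and 0.06 ± 0.03 at 5.1 h. On the NTS in kidney edgeR called 0 of the 9 genes (2.12% of 18932 genes), with 2 at an unadjusted p below 0.05, and DESeq2 called 1. With the replicate number as a block Slc31a1 (amplitude 0.22 ± 0.05, 18.2 h, adjusted p = 0.0211) and Slc31a2 (0.29 ± 0.06, 19.4 h, adjusted p = 0.00134) were called on the NTS, as were 1473 genes in all against 401. Without the block Slc31a2 was called when ZT0 replicate 2 (adjusted p = 0.0123) or ZT4 replicate 1 (0.0439) was left out.

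The promoter windows of the rhythmic genes were searched for the core letters of clock and metal elements, a search chosen with the rhythm results known. RefSeq windows of 300 bases, 250 before the start site and 50 after it (GRCm38.p6), were at hand for 7 of the 9 genes. None was at hand for Slc47a1 and Abcc3, whose promoters were not searched. The E-box letters CACGTG, the same on both strands, occur in the windows of 3 of the 7 genes (Abcc4, Atp7a and Slc31a2) and in 7.15% of the 32851 windows searched. These leave out a chromosome that holds none of the 9 genes. A gene counts if any of its windows holds the letters, while the percentage counts single windows. These 3 windows are shown because they hold the letters; Abcc4 was called rhythmic in kidney and the other two in liver. CACGTG is in capitals, 5′ to 3′ along the gene's own strand. They lie at chr14:118706170-118706469 on the - strand for Abcc4, chrX:106026974-106027273 on the + strand for Atp7a and chr4:62286179-62286478 on the + strand for Slc31a2.
Abcc4: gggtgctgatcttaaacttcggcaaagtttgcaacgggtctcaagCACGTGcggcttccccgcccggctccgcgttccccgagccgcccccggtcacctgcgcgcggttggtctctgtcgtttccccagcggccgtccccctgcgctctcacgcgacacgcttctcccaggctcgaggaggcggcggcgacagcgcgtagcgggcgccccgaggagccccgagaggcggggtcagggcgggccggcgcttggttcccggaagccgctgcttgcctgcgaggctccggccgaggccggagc
Atp7a: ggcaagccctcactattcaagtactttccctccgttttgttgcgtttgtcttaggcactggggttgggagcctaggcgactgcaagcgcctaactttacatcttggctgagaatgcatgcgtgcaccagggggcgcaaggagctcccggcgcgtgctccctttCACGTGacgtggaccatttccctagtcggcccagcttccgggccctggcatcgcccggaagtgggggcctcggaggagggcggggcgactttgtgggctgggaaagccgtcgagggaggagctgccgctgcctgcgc
Slc31a2: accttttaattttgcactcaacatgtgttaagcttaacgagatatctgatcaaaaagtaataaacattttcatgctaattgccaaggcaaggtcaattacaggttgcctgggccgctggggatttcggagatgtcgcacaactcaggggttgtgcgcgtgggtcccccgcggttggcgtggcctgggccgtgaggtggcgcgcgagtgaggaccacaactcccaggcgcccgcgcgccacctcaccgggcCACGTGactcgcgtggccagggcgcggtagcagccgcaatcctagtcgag
The letters start at position -205 from the start site in Abcc4, at -87 in Atp7a and at the start site itself in Slc31a2. The windows of Atp7b and Abcc2, also called in liver, and of Slc22a2 and Slc31a1 do not hold them, nor does a window at a further Abcc4 start at chr14:118676882-118677181. The D-box letters TTATGNAA (3.38% of windows) and the REV-ERB letters TAGGTCA (2.61%), searched on both strands, were in none of the 7 genes' windows. The metal response letters TGCACNC or TGCGCNC, on either strand, were in 4 (Abcc4, Atp7a, Atp7b and Slc31a2) and in 25.7% of the windows searched. A match describes letters in these windows and is no measure of binding.

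Genes that work beside the 9 were counted in lists chosen by function. Of 9 organic cation and anion transporters tested, 4 had more TS reads in kidney and 4 in liver; over all genes the shares were 42.2% and 31.7%. Slco1b2, a hepatocyte uptake carrier, was lower in kidney by log2 -5.51 ± 0.15, and the tubule anion transporters Slc22a6 (5.45 ± 0.13) and Slc22a8 (4.40 ± 0.11) were higher. Of 8 other drug efflux pumps 3 were higher in kidney and 4 lower, with the canalicular pumps Abcb11 (-5.08 ± 0.14) and Abcb4 (-4.11 ± 0.09) and the liver transporter Abcc6 (-2.57 ± 0.15) differing most. Of 11 genes of copper handling 1 was higher in kidney and 8 lower, among them the metalloreductases Steap4 (-5.00 ± 0.12) and Steap3 (-1.19 ± 0.05) and ceruloplasmin Cp (-2.52 ± 0.06), which ATP7B supplies with copper. Of 5 subunits of the volume-regulated anion channel, which can pass platinum drugs, 2 were higher in kidney, Lrrc8b (2.24 ± 0.10) and Lrrc8e (0.77 ± 0.15).

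The related genes called rhythmic are named because they were called; over all genes 15.0% were called in kidney and 16.6% in liver. Among the organic ion transporters these were 2 of 9 in kidney, Slc22a7 (amplitude 0.42 ± 0.08, 9.0 h) and Slc47a2, which encodes the second MATE exporter (0.33 ± 0.07, 19.8 h), and 2 of 9 in liver, Slc22a7 (1.04 ± 0.20, 16.5 h) and Slc22a5 (0.20 ± 0.05, 7.9 h). Among the other efflux pumps 4 of 8 were called in kidney, of which Abcc1 (0.20 ± 0.04, 18.2 h), Abcc5 (0.19 ± 0.04, 20.1 h) and Abcb1a (0.22 ± 0.06, 17.99 h) had peaks near that of Abcc4 and Abcg2 had its peak at 7.4 h (0.13 ± 0.03). In liver 2 of the 8 were called, Abcb1a (0.35 ± 0.06, 12.8 h) and Abcg2 (0.19 ± 0.05, 15.0 h). Of the copper genes Commd1, which takes part in the trafficking of ATP7A and ATP7B, was the 1 called in kidney (0.21 ± 0.04, 19.1 h) and was called in liver (0.21 ± 0.03, 20.2 h) with Steap3 (0.43 ± 0.07, 19.1 h). Lrrc8a was called in liver (0.10 ± 0.03, 8.0 h). In kidney edgeR called 0 of the 5 channel subunits, with 2 at an unadjusted p below 0.05 and 0 by DESeq2. For comparison, 69.9% of all genes called in kidney and 58.2% of those in liver had their peak between 16 and 24 h.

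The genes whose mean log2 TS level over the 12 combinations of tissue and time was most like that of each member were listed by Pearson correlation among 14784 genes, as a description. For the members with wide tissue differences the likeness is set by tissue. Slc22a2 was most like B4galnt3 (r = 0.999) and Phyhipl (0.998), Atp7b most like Parp9 (0.999) and Pigr (0.998), and Abcc3 most like F7 (0.999), which encodes a clotting factor made in liver, and Foxp2 (0.998). Abcc2 was most like Nr1h4 (0.995), which encodes the bile acid receptor FXR, and 2210406O10Rik (0.992). Slc47a1 was most like Mief2 (0.949) and Acot13 (0.930), and Abcc4 most like Gm3776 (0.975) and Dctd (0.975). The members with small tissue differences reached lower values, such as Slc31a1 with Rnf151 (0.958) and Jtb (0.942), Slc31a2 with Mtmr6 (0.958) and Atp7a with Mypop (0.960) and Dnase1l1 (0.956).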

How the data were processed

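Libraries were XR-seq of mouse kidney and liver. Per the labels' protocols, oligomers bound to TFIIH were precipitated first and those with a lesion second; for the second step the extraction text names lesions other than cisplatin, which the treatment and design texts name. The deposited count values are whole numbers of reads per gene entry, strand, time and replicate, per the file headers. Reads were mapped to mm10, per the submitters' processing notes; aligner and counter: not given in the sources used here. Entries without a symbol (882, with 2.76% of TS reads) were left out of tests and library sizes.

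The tests were those of edgeR 4.0.16 (with limma 3.58.1 under R 4.3.3), namely glmQLFit with glmQLFTest. Libraries were scaled by TMM, low genes removed by filterByExpr, and p-values adjusted by Benjamini-Hochberg over all genes tested, with a threshold of 0.05. All 9 members passed the filter in every comparison. Rhythms were fitted per tissue and strand as a cosine and sine of 24 h, with the standard error of an amplitude from a test along the fitted peak. Tissues were compared over 1 mean per tissue and time, with TMM over the columns of the strand tested. Strands were compared within libraries, with 1 library size for both strands. Related lists give values for the 3 largest tissue differences among called genes (values of 1 listed gene are not reported here), and likeness used genes averaging 50 reads or more. Alternatives were the replicate number as a block, DESeq2 1.42.0, no filter, a free mean per time, removal of the trend over gene length, the authors' kidney counts drawn down to a fixed total, other library sizes, and leaving out each library. The scripts were tested on simulated data. The members, lists, tests and alternatives were chosen with earlier results of these data known.

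Replicate numbers were checked as pairs: deviations of same-numbered libraries correlated above 0.1 in 15 of 15 pairs of kidney times (0.13 to 0.38), in 6 of 15 pairs of liver times, and in 3 of 6 kidney and liver pairs. Library depth sets the precision, and read counts carry counting error besides the spread between libraries.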

Additional observations from a re-analysis of the deposited data

Results flagged for a closer look

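The ratio of TS to NTS reads differed between kidney and liver, by edgeR's test of the interaction of strand and tissue over 24 libraries, for 7 of the 9 transporter genes. It was higher in kidney by log2 2.84 for Slc22a2, 0.30 for Slc31a1 and 0.42 for Slc31a2, and the difference was -1.03 for Slc47a1, -0.49 for Atp7a, -1.82 for Atp7b and -1.67 for Abcc3. Since 60.7% of all genes were called in this test, with a median gene difference of -0.14 (0.03 with the strands scaled to each other by TMM), a call alone does not set these genes apart.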

How the results depend on the processing

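Settings other than the one reported were tried for 90 member results (9 genes in 10 comparisons). Of 342 such values, 316 kept their side of the threshold and, for differences, their sign, 9 lost a call, 8 gained one and 9 changed sign. For rhythms the peak was compared only where both fits called the gene, and a free mean has no peak. Uncalled rhythms could thus move: without the length trend the kidney peak of Atp7a went from 17.4 to 8.4 h. The sign changed under DESeq2 for the tissue difference of Slc31a1 (-0.049) and Slc31a2 (-0.0215), neither called, and under TMM over the strand columns for the TS/NTS ratio in kidney of Slc31a1 (-0.52), Slc31a2 (-1.15) and Abcc3 (-0.95), in liver of Slc22a2 (-2.17), Slc31a1 (-0.89) and Slc31a2 (-1.64), and for the tissue difference of the Abcc2 ratio (0.17), not called; that scaling moves the median gene, as given above, and the cause of the others was not tested. For the kidney TS rhythm DESeq2 called 2 members (Slc31a1 with Abcc4), removal of the length trend 2 (Slc31a2 with Abcc4) and the free mean per time 0, with 196 genes in all; the replicate block called 4899 genes. For the liver TS rhythm the free mean per time called 0 members and 549 genes. For the rhythm difference DESeq2 called 670 genes and the replicate block 447. For the kidney NTS rhythm DESeq2 called 1 member and 635 genes, the replicate block 2 and 1473, and no filter 1 and 1171; for the liver NTS rhythm no filter called 1156 genes. The replicate block changed no call of a member other than those of Slc31a1 and Slc31a2 on the kidney NTS. Leaving out each library in turn, members called ranged from 1 to 1 in kidney TS rhythm, 1 to 5 in liver TS rhythm, 0 to 1 in the rhythm difference, 0 to 1 in kidney NTS rhythm, 0 to 1 in liver NTS rhythm and 8 to 9 in liver TS minus NTS, and stayed at 7, 9, 9 and 7 for the tissue differences on TS and NTS, kidney TS minus NTS and the ratio difference. All genes called ranged from 908 to 3938, 1639 to 4514, 112 to 400, 87 to 1063 and 385 to 1027 in the rhythm tests in that order; the lowest counts came without replicate 2 of kidney ZT8 (908, 112 and 87), replicate 1 of liver ZT20 (1639) and replicate 2 of liver ZT8 (385). The values that changed sign without a library were the uncalled tissue differences of Slc31a1 (-0.041 to 0.012) and Slc31a2 (-0.011 to 0.047) and that of the Abcc2 ratio (-0.050 to 0.030). Depth limits Slc22a2 in liver most, at 13 to 71 TS reads per library.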

Other observations

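Of the opposite-strand genes that lie nearest to the transporter genes, 3 are given with their mean TS levels, chosen after their values were seen. Genes on the same strand were not searched, so others may lie nearer. Cldn10, a claudin gene 81651 bases beyond the 5′ end of Abcc4, had 1.91 in kidney and 0.0660 in liver. Alg11, whose entry lies 646 bases beyond the 5′ end of Atp7b, had 2.50 and 2.69, while Atp7b had 0.419 and 2.63. Taf9b, 78713 bases beyond the 3′ end of Atp7a, had 0.986 and 0.3045, beside 1.04 and 0.908 for Atp7a. These values are given without a test.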
